A study of Bos taurus with 40 samples.

Results

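Aquaporins are membrane channels that let water, and in some members glycerol, cross cell membranes. The 9 aquaporin genes examined here, AQP1, AQP2, AQP3, AQP4, AQP5, AQP7, AQP8, AQP9 and AQP11, were chosen by symbol, and the count tables held all 9 of them among 13570 genes. Each had at least 1 read in at least 1 sample and so was among the 13148 genes tested. The samples were pituitary gland, longissimus dorsi muscle, liver and abdominal fat of 10 Korean cattle, a breed of Bos taurus, 5 cows and 5 bulls older than 22 months when slaughtered. Every animal gave 1 poly-A RNA-seq library per tissue, so each sex had 5 libraries in each tissue and 40 libraries were made in all. The labels give no treatment and no genotype. Cows and bulls were numbered from 1 to 5 separately, so that cow 1 and bull 1 are different animals.

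Classical aquaporins such as AQP1, AQP2, AQP4, AQP5 and AQP8 conduct mainly water, whereas the aquaglyceroporins AQP3, AQP7 and AQP9 also conduct glycerol. AQP7 is known as the channel through which adipocytes release the glycerol left after lipolysis, and AQP9 as the channel through which hepatocytes take it up for gluconeogenesis. AQP4 is known from astrocyte end feet and from the membrane of fast muscle fibres, where the dystrophin complex anchors it. AQP1 is known from endothelium, red cells and bile ducts, AQP2 from the collecting duct of the kidney, AQP5 from secretory glands, and AQP11 from intracellular membranes.

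Reads counted on genes ran from 5173092 to 19165864 per library (median 10005607), and 33.2% to 54.0% of the uniquely aligned reads lay outside genes. Levels are given as CPM, the usual read counts relative to library size, here scaled by TMM factors over the 40 libraries. CPM is not divided by transcript length, so a level is compared between tissues and animals and not with that of another gene. A level of 3 reads was taken as the floor of detection, which came to 0.132 to 0.793 CPM depending on the library. The tissue labels matched their markers: 7 hepatocyte markers summed to at least 139953 CPM in every liver and at most 1881 CPM in any library of the other tissues, and 9 pituitary hormone and endocrine markers summed to at least 85390 CPM in every pituitary and at most 391 CPM elsewhere. The 9 fast fibre markers summed to at least 46691 CPM in every muscle, and the 6 adipocyte markers to 6481 to 24884 CPM in fat against 44.0 to 808 CPM in muscle.

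A pair of libraries went against their labels or stood apart. The liver library labelled bull 3 had 1401 CPM of XIST, within the range of the cows' livers, and 0 reads of the Y-linked genes DDX3Y, USP9Y and ZFY. Its closest library among the livers was that of cow 4 (Pearson's r of log2(CPM + 1) = 0.993), the closest of the 45 liver pairs by chi-square per degree of freedom (15.0, median 111). A value above counting noise does not show that 2 libraries come from different animals, and both were counted because the labels give them to different animals. The fat library labelled bull 5 had 1.78 CPM of USP9Y, against 28.1 to 34.1 CPM in the other bulls' fat. XIST was at most 1.39 CPM in the bulls' fat, this library included, against 316 to 981 CPM in the cows' fat. The main sex differences and correlations that take in either library are given with and without it. Without the one or the other, the tissue calls below stayed the same but for AQP1 between liver and pituitary.

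The aquaporins divided the 4 tissues between them. With a mean of at least 1 CPM taken as measurable, 5 members were measurable in liver (AQP1, AQP2, AQP8, AQP9 and AQP11), 3 in fat (AQP1, AQP3 and AQP7), 4 in muscle (AQP1, AQP3, AQP4 and AQP7) and 3 in pituitary (AQP1, AQP4 and AQP5). AQP1 was the one member measurable in all 4 tissues. AQP2, AQP5, AQP8, AQP9 and AQP11 were each measurable in 1 tissue, and AQP3, AQP4 and AQP7 in 2. All 10 livers had 0 reads of AQP5, all 10 muscles 0 reads of AQP2 and all 10 pituitaries 0 reads of AQP8.

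**Figure D1:**
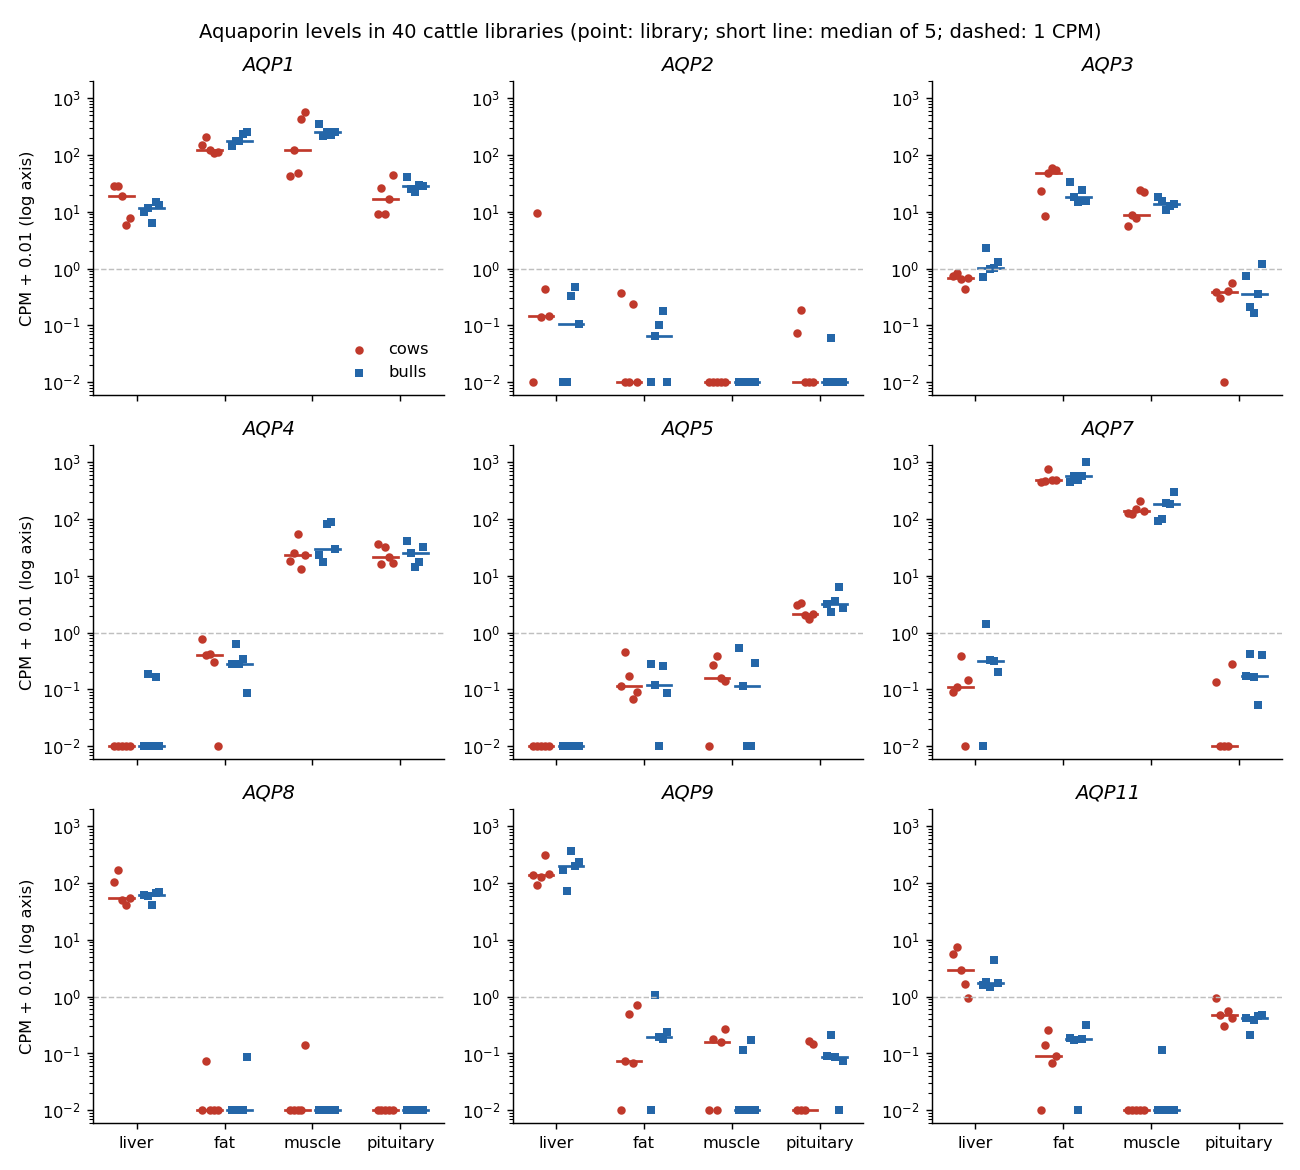
Level of each aquaporin in the 40 libraries, as CPM + 0.01 on a log axis, by tissue, with circles for cows, squares for bulls, short lines for the median of 5 and a dashed line at 1 CPM. AQP8 and AQP9 stand above 1 CPM in every liver, AQP7 in every fat and muscle library, and AQP1 in all 40 libraries. Points on the lowest level are libraries with 0 reads.

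Liver held the glycerol channel AQP9 and the water channel AQP8. AQP9 measured 139.8, 91.7, 129, 316 and 144 CPM in the livers of cows 1 to 5 and 169, 73.9, 364, 198 and 239 CPM in those of bulls 1 to 5. The highest level was thus in the liver labelled bull 3, and cows and bulls overlapped. No library of another tissue reached more than 1.05 CPM of AQP9, and summed over the 10 libraries of a tissue the liver level was 604-fold that of fat, 1920-fold that of muscle and 2620-fold that of pituitary. The log2 difference of liver over fat was 9.24 ± 0.46 (SE; edgeR quasi-likelihood test, adjusted p = 2.43e-19).

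AQP8 measured 103, 172, 50.0, 40.6 and 55.2 CPM in the livers of cows 1 to 5 and 61.5, 59.1, 40.6, 65.9 and 69.6 CPM in those of bulls 1 to 5. Cows 1 and 2 were above every bull, while cows 3, 4 and 5 overlapped the bulls. Outside liver only 3 reads of AQP8 were counted in 30 libraries, 2 in fat and 1 in muscle, against 6639 reads in liver. With 0 reads in pituitary, the liver level was at least 4021-fold higher than the pituitary level, with 3 reads over the 10 pituitaries as the floor.

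AQP11, an unorthodox aquaporin of intracellular membranes, was a low but regular liver transcript. It measured 5.65, 7.35, 2.95, 1.68 and 0.957 CPM in the livers of cows 1 to 5 and 1.57, 1.79, 1.45, 4.37 and 1.70 CPM in those of bulls 1 to 5. Pituitary was next, with 0.202 to 0.947 CPM from 4 to 15 reads per library, and the log2 difference of liver over pituitary was 2.65 (edgeR quasi-likelihood test, adjusted p = 2.77e-07). Muscle gave 1 read of AQP11 in all 10 libraries together. The liver level of AQP11 exceeded that of each other tissue, and the cows' and bulls' livers overlapped.

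AQP2, the vasopressin-regulated channel of the kidney, was measurable in 1 library alone. The liver of cow 2 had 94 reads, or 9.60 CPM, while the other 9 livers had 0 to 6 reads and at most 0.468 CPM. Among genes of at least 5 CPM in the liver of cow 2, AQP2 stood farthest above the highest of the other livers by their ratio. BCMO1, SLC22A15, NLRP12 and GSTT4 followed AQP2 in that order, BCMO1 with 13.6 CPM in cow 2 against at most 1.61 CPM in another liver. Liver exceeded fat in AQP2 by 2.70 on the log2 scale (edgeR quasi-likelihood test, adjusted p = 0.0104), but by 0.72 without cow 2 (adjusted p = 0.410) and by 1.88 with the animal as a block (adjusted p = 0.0866), and the call was also lost without bull 4 (adjusted p = 0.0724). The difference between liver and fat in AQP2 thus rests on the liver of cow 2.

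AQP7, the glycerol channel of adipocytes, was high in fat and next in muscle. It measured 444, 472, 767, 478 and 476 CPM in the fat of cows 1 to 5 and 451, 567, 492, 573 and 995 CPM in the fat of bulls 1 to 5. Muscle had 129, 124, 151, 204 and 137 CPM in the cows and 93.3, 98.6, 190.4, 187 and 295 CPM in the bulls. All 10 fat libraries were above all 10 muscle libraries, and within animals fat was 2.34 to 5.75 times muscle. The log2 difference of fat over muscle was 1.83 ± 0.24 (SE; edgeR quasi-likelihood test, adjusted p = 6.36e-07). Liver and pituitary had at most 1.43 and 0.403 CPM of AQP7, and these 2 tissues did not differ beyond their spread (log2 difference 0.72 ± 0.54, edgeR quasi-likelihood test, adjusted p = 0.276).

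AQP3, which RefSeq's current cattle assembly places next to AQP7, followed the same order of tissues with a smaller step between fat and muscle. The fat of cows 1 to 5 had 23.6, 8.32, 47.7, 58.9 and 54.0 CPM and that of bulls 1 to 5 had 33.7, 18.3, 14.6, 24.3 and 15.7 CPM. Muscle had 5.66, 8.82, 7.74, 24.1 and 22.6 CPM in the cows and 18.1, 15.3, 10.8, 12.4 and 13.5 CPM in the bulls. The ranges of fat and muscle overlapped, but fat was higher than muscle in 9 of 10 animals, cow 2 being the exception, and the log2 difference was 1.04 ± 0.32 (SE; edgeR quasi-likelihood test, adjusted p = 0.00459). Liver lay at 0.421 to 2.33 CPM, from 3 to 14 reads, and pituitary at 0 to 1.17 CPM, from 0 to 18 reads. The level was above the floor in 9 of 10 livers and 8 of 10 pituitaries. Liver was higher by 1.14 ± 0.40 on the log2 scale (SE, edgeR quasi-likelihood test, adjusted p = 0.0142). This difference was not called without bull 2 (adjusted p = 0.0725). With library size alone, without TMM factors, it was 0.32 and not called (edgeR quasi-likelihood test, adjusted p = 0.485).

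AQP1, the widespread water channel of endothelium, was higher in fat and muscle than in liver and pituitary. Muscle had 43.2, 122, 48.5, 428 and 576 CPM in cows 1 to 5 and 347, 217, 257, 222 and 254 CPM in bulls 1 to 5. The cows lay on both sides of the bulls, with cows 1, 2 and 3 below all bulls and cows 4 and 5 above them, and the cows' mean was 243 ± 244 CPM (SD, n = 5) against 259 ± 52.3 CPM in the bulls (SD, n = 5). Fat ran from 108 to 249.9 CPM with a median of 162 CPM, so fat and muscle overlapped. The log2 difference of fat over muscle was -0.61 ± 0.34 (SE; edgeR quasi-likelihood test, adjusted p = 0.123), and fat was higher in 4 animals and muscle in 6. Without cow 1 the difference was -0.75 and was called (adjusted p = 0.0462).

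Liver had 5.76 to 28.5 CPM of AQP1 and pituitary 9.09 to 43.7 CPM. Every fat library was above every liver and every pituitary library, and every muscle library was above every liver library. The log2 difference of liver over pituitary was -0.80 ± 0.34 (SE; edgeR quasi-likelihood test, adjusted p = 0.0401). This call was lost without the liver library of bull 3 (adjusted p = 0.0733), without the fat library of bull 5 (0.0523) and with the animal as a block (0.123). It was lost as well without cow 4, without cow 5 and without each of the 5 bulls (0.0505 to 0.195), so liver and pituitary did not hold a firm order in AQP1. The red cell markers, 5 genes that include HBB and HBA, summed to at most 0.787 CPM in any fat, muscle or pituitary library and to 0.143 to 19.3 CPM in liver, with both globins at or under 0.702 CPM in every library.

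AQP4, the channel of astrocytes and fast fibres, was found in muscle and pituitary. Muscle had 18.3, 24.8, 55.0, 13.0 and 23.4 CPM in cows 1 to 5 and 22.9, 17.8, 81.2, 89.8 and 29.2 CPM in bulls 1 to 5. Pituitary had 37.0, 16.4, 32.3, 21.1 and 16.9 CPM in the cows and 41.4, 25.1, 14.2, 17.4 and 32.6 CPM in the bulls. The 2 tissues overlapped, each was the higher in 5 of 10 animals, and the log2 difference of muscle over pituitary was 0.50 (edgeR quasi-likelihood test, adjusted p = 0.178). Fat had at most 0.772 CPM, and the 10 livers gave 3 reads of AQP4 together, so that muscle was 976-fold higher than liver with a counting interval of 334 to 4735 (95%, counting error only).

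AQP5, known from salivary, lacrimal and sweat glands, was measurable in pituitary alone. It measured 3.09, 3.36, 2.03, 1.72 and 2.12 CPM in the pituitaries of cows 1 to 5 and 3.15, 2.27, 3.59, 6.43 and 2.67 CPM in those of bulls 1 to 5, from 22 to 146 reads. Fat and muscle had 0 to 7 reads per library and at most 0.521 CPM. Liver had 0 reads, so the pituitary level was at least 92.6-fold higher than that of liver, with 3 reads over the 10 livers as the floor. RefSeq places AQP5 next to AQP2, which had at most 3 reads in any pituitary.

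Tested over all genes, the 6 contrasts of tissues called most genes, and the aquaporins are read against that background. Liver differed from fat in 9 of 9 aquaporins (63.7% of all tested genes were called) and from muscle in 9 of 9 (61.6% of all). Liver differed from pituitary in 8 of 9 (64.3% of all), the exception being AQP7. Fat differed from pituitary in 7 of 9 (64.2%), muscle from pituitary in 5 of 9 (63.7%) and fat from muscle in 4 of 9 (59.3%). In both liver contrasts with fat and muscle, AQP2, AQP8, AQP9 and AQP11 were higher in liver, and AQP1, AQP3, AQP4, AQP5 and AQP7 were lower. Some calls stand on few reads over the 10 libraries of a tissue: AQP5 had 0 in liver, 22 in fat and 14 in muscle. AQP4 had 3 reads in liver and 53 in fat, and AQP9 43 in fat and 11 in pituitary. The call of AQP2 between liver and fat rests on the liver of cow 2. The aquaporins called between fat and muscle were AQP3, AQP7 and AQP11, higher in fat, and AQP4, higher in muscle, though AQP11 stood on at most 4 reads per library in these 2 tissues. With the animal as a block AQP2 was called as well, higher in fat (edgeR adjusted p = 0.0447), and DESeq2 added AQP9 (adjusted p = 0.0242), both from few reads. As RNA came from whole tissue, fewer cells of a type and less RNA per cell cannot be told apart. The p-values measure the spread between animals, and the same 10 animals gave all 4 tissues.

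Cows and bulls were then compared within each tissue by the likelihood ratio test of a model with sex alone, called M1 in the study. No aquaporin was called: 0 of 9 in liver (0.175% of all genes were called), 0 of 9 in fat (0.114%), 0 of 9 in muscle (0.517%) and 0 of 9 in pituitary (0.745%). The quasi-likelihood test of edgeR called 0 of 9 as well in each tissue, against 0.00761%, 0.0228%, 0.0532% and 0.0913% of all genes in liver, fat, muscle and pituitary. DESeq2 also called 0 of 9, against 0.176%, 0.268%, 0.813% and 1.14% of the genes it gave an adjusted p, the rarest aquaporins not being among them. At an unadjusted p under 0.05, the likelihood ratio test reached 2 of 9 aquaporins in liver (7.45% of all genes), 0 in fat (6.88%), 0 in muscle (11%) and 0 in pituitary (9.27%). These were AQP2 (edgeR adjusted p = 0.467) and AQP4 (edgeR adjusted p = 0.660), the first on the liver of cow 2 and the second on 3 reads in all. The log2 difference of AQP2 in liver was -3.33, and -3.60 without the liver library of bull 3. In no tissue did the 5 cows and 5 bulls separate without overlap in any of the 9 aquaporins, while 0.548%, 1.29%, 1.65% and 1.34% of all genes did so in liver, fat, muscle and pituitary.

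**Figure D2:**
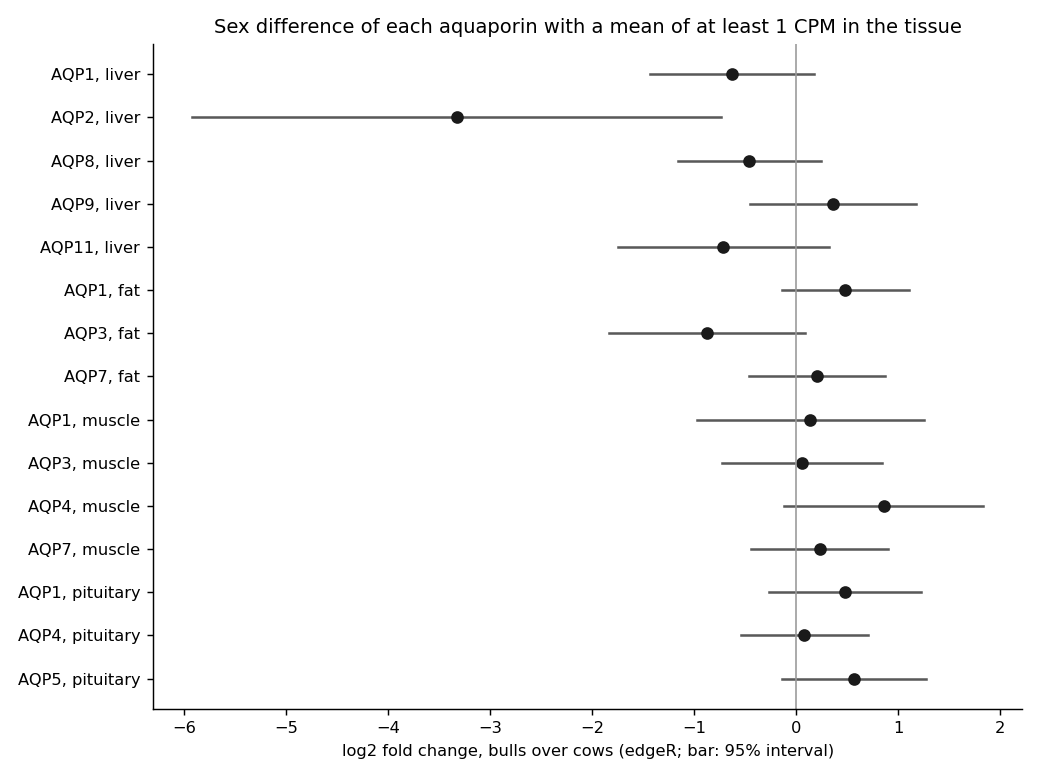
Log2 fold change of bulls over cows, with its 95% interval, for the 15 pairs of aquaporin and tissue with a mean of at least 1 CPM. Every interval but that of AQP2 in liver covers 0, and AQP2, at -3.33, had an edgeR adjusted p of 0.467 and rests on the liver of cow 2.

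The intervals show how large a sex difference these libraries leave room for. AQP7 in fat differed by 0.20 on the log2 scale (95% interval -0.46 to 0.87; edgeR adjusted p = 0.946) and by -0.03 without the fat library of bull 5. AQP3 in fat differed by -0.87 (interval -1.83 to 0.09; edgeR adjusted p = 0.748) and by -0.78 without that library, with means of 38.5 ± 21.6 CPM in cows and 21.3 ± 7.88 CPM in bulls (SD, n = 5 each). AQP4 in muscle differed by 0.86 (interval -0.12 to 1.83; edgeR adjusted p = 0.530), with means of 26.9 ± 16.4 CPM in cows and 48.2 ± 34.4 CPM in bulls (SD, n = 5 each). AQP9 in liver differed by 0.36 (interval -0.45 to 1.17; edgeR adjusted p = 0.953) and by 0.04 without the liver library of bull 3. AQP8, AQP11 and AQP1 in liver differed by -0.46, -0.71 and -0.63, with edgeR adjusted p of 0.884, 0.884 and 0.844, and by -0.37, -0.62 and -0.50 without the liver library of bull 3. AQP1 in muscle differed by 0.14 (interval -0.98 to 1.26), and the cows spread over a 13.3-fold range. AQP1 differed by 0.48 in fat (0.38 without the fat library of bull 5) and by 0.48 in pituitary, and AQP5 in pituitary by 0.56, with edgeR adjusted p of 0.814, 0.713 and 0.643. None of these misses shows that the sexes were alike.

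Over all 4 tissues, the model with sex and tissue, called M2 in the study, called 0 of 9 aquaporins against 1.69% of all genes, as did the quasi-likelihood test (0.586%) and DESeq2 (2.3%). At an unadjusted p under 0.05 it reached 2 of 9 (16.7% of all genes). These were AQP7, with a log2 difference of bulls over cows of 0.45 (edgeR adjusted p = 0.267), and AQP2 (edgeR adjusted p = 0.210). The value of AQP7 fell to 0.36 without the fat library of bull 5 and to 0.19 without bull 5 altogether, and that of AQP2 moved from -1.92 to -0.44 without cow 2. The interaction of sex and tissue called 0 of 9 aquaporins by the likelihood ratio test (0.335% of all genes) and 0 of 9 by the quasi-likelihood test of edgeR (0% of all genes), with 0 of 9 at an unadjusted p under 0.05 in the former (8.58%). AQP3 came nearest, with an edgeR adjusted p of 0.607. The mean of its bulls lay below that of the cows in fat and above it in liver. The sexes overlapped in both tissues, and the livers had 3 to 14 reads each.

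Within a tissue, some aquaporins were high in the same animals. Over the 22 pairs of measurable aquaporins, 5 passed the permutation test of Pearson's r of log2(CPM + 1) over 10 animals after Benjamini-Hochberg adjustment over the 22. In liver, AQP1 rose and fell with AQP11 (r = 0.88, adjusted permutation p = 0.00869; rho = 0.88, adjusted p = 0.0179) and with AQP8 (r = 0.83, adjusted permutation p = 0.0117; rho = 0.78, adjusted p = 0.0547). Without the 2 farthest livers these values of r were 0.70 and 0.63. AQP8 and AQP11 had r = 0.80 (adjusted permutation p = 0.0220), which was 0.27 without the 2 livers farthest from the median of AQP8, so this relation rests on those livers. Without the liver library of bull 3 the r of these 3 pairs was 0.88, 0.79 and 0.79. In the 5 cows alone it was 0.91, 0.80 and 0.86, and in the 5 bulls 0.68, 0.92 and 0.42. Cows 1 and 2 were the highest livers in all 3 of these genes. AQP9 did not share the pattern: its r was -0.62 with AQP1 and -0.57 with AQP8, with adjusted permutation p of 0.186 and 0.227, and -0.51 and -0.47 without that library.

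In muscle, AQP1 and AQP3 had r = 0.93 (adjusted permutation p = 0.00132; rho = 0.88, adjusted p = 0.0179), and r = 0.91 without the 2 muscles farthest from the median of AQP1. Cows 1, 2 and 3 were lowest in both genes, and cows 4 and 5 were highest in both. The r was 0.97 in the 5 cows and 0.54 in the 5 bulls. In fat the same 2 genes went in opposite directions, with r = -0.82 (adjusted permutation p = 0.0220; rho = -0.82, adjusted p = 0.0403), -0.78 without the 2 farthest fat libraries and -0.83 without that of bull 5. There r was -0.99 in the 5 cows and -0.46 in the 5 bulls. The share of aligned reads outside genes was examined beside these levels, and none of its 15 relations passed. In muscle it was 53.3% and 48.1% in the muscles of cows 1 and 3 and 35.8% to 44.4% in the other 8, and its r was -0.83 with AQP1 and -0.74 with AQP3 (adjusted permutation p = 0.0544 and 0.0805). In pituitary its r with AQP1 was -0.73 (adjusted permutation p = 0.0805). Without the 2 libraries farthest from the median of that share these were -0.40, -0.33 and -0.34. In the muscles of the 5 cows alone the r of the share was -0.94 with AQP1 and -0.93 with AQP3. In those of the 5 bulls it was 0.27 and 0.46. The part of this share in the relation of AQP1 and AQP3 was not tested.

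**Figure D3:**
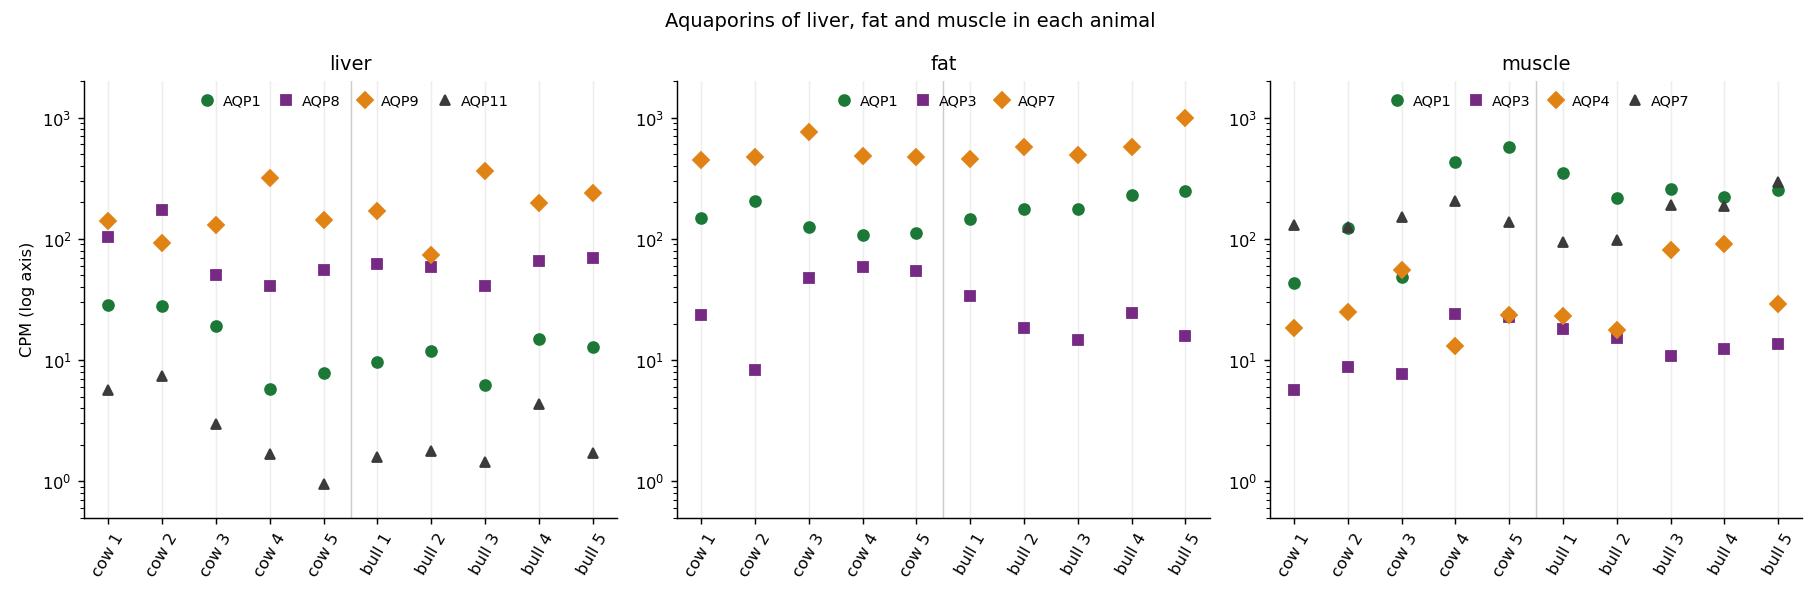
CPM, on a log axis, of the aquaporins of liver, fat and muscle in each of the 10 animals, with cows left and bulls right of the line. In liver AQP1, AQP8 and AQP11 are highest in cows 1 and 2, and in muscle AQP1 and AQP3 are lowest in cows 1 to 3 and highest in cows 4 and 5.

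The levels were next set beside lists of cell type markers, in 8 relations over the 10 animals of a tissue, each list scored by the mean log2(CPM + 1) of its genes. In liver AQP1 followed the 7 endothelial markers, among them PECAM1, CDH5 and VWF, with r = 0.88 (adjusted permutation p = 0.00904; rho = 0.89, adjusted p = 0.00848), 0.81 without the 2 livers farthest from the median of the list and 0.85 without the liver library of bull 3. The same relation had r = 0.48 in pituitary, 0.22 in muscle and -0.25 in fat, with adjusted permutation p of 0.251, 0.544 and 0.544. AQP7 followed the adipocyte markers in fat with r = 0.79 (adjusted permutation p = 0.0226), but with rho = 0.58 (adjusted p = 0.234), r = 0.52 without the 2 farthest libraries and r = 0.47 without the fat library of bull 5, so it rests on few libraries. AQP4 had r = 0.67 with the glial markers in pituitary and -0.63 with the fast fibre markers in muscle, with adjusted permutation p of 0.0996 and 0.102. AQP9 and the hepatocyte markers had r = 0.33 (adjusted permutation p = 0.470), and r = 0.17 without the liver library of bull 3. In the 5 cows and the 5 bulls r was -0.24 and 0.92 for AQP9. For AQP4 it was 0.02 and -0.84 with the fast fibre markers and 0.72 and 0.91 with the glial markers. For AQP7 it was 0.49 and 0.96. For AQP1 it was 0.94 and 0.67 in liver, 0.38 and 0.65 in pituitary, 0.43 and -0.27 in muscle and -0.05 and -0.72 in fat. The glial genes GFAP and SOX2 were 3.26 to 55.2 CPM and 17.1 to 46.4 CPM in pituitary, whereas ALDH1L1 of the same list was at most 0.457 CPM there. S100B and SLC1A3 of the list had means of 60.8 and 31.2 CPM in pituitary and 602 and 112 CPM in fat. The list summed to a median of 144 CPM in pituitary, 655 CPM in fat and 842 CPM in liver, so it is not particular to pituitary.

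Relative to adipocyte markers, AQP7 was higher in muscle than in fat. For every 1000 CPM summed over the 6 adipocyte markers, fat had 33.2 to 73.5 CPM of AQP7 and muscle 169.8 to 3418 CPM, and the 2 ranges did not overlap. On the log2 scale the difference of muscle over fat in AQP7 less the list score was 4.11 ± 1.30 (SD, n = 10 animals), positive in 10 of 10 animals (two-sided exact sign-flip permutation test, adjusted p = 0.00391 over 8 comparisons). AQP3 gave 5.02 ± 1.68, positive in 10 of 10 animals, with the same adjusted p in the exact permutation test, and 0.00195 before adjustment is the smallest p this test can give. From fat to muscle the 6 adipocyte markers fell by 4.52 to 6.88 on the log2 scale, more than AQP7 and AQP3 did. The sign of both differences follows from that, and the p-values add nothing further. Which cells of muscle gave the AQP7 and AQP3 reads was not tested. The ratio of AQP1 to the endothelial markers also differed between tissues. The median AQP1 per 1000 CPM of the list was 22.5 CPM in liver, 73.7 CPM in fat, 118 CPM in pituitary and 305 CPM in muscle. The test was made on AQP1 less the list score on the log2 scale, not on this summed ratio. All 6 pairs of tissues differed in that measure, with adjusted p of 0.00391 to 0.0488 in the exact permutation test. The weakest was between fat and pituitary, where 7 of 10 animals were higher in pituitary.

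**Figure D4:**
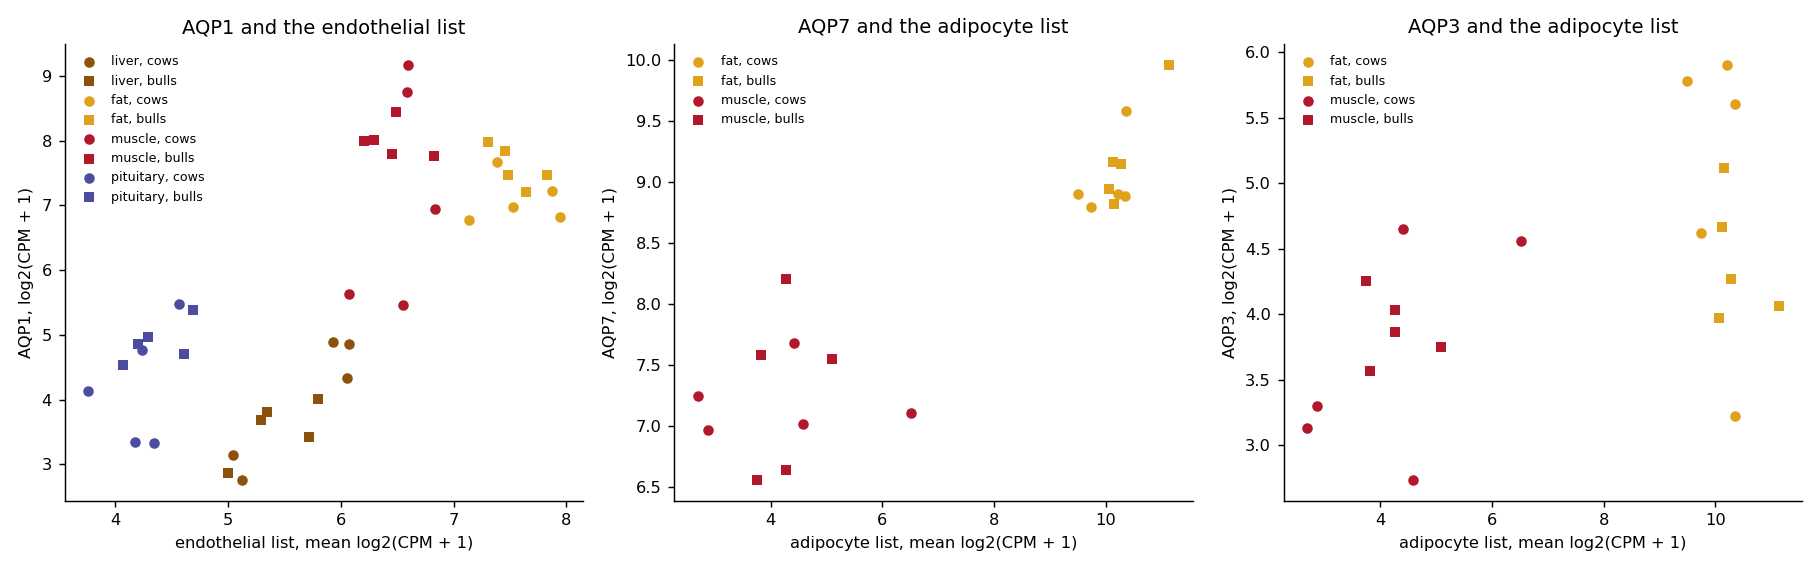
Log2(CPM + 1) of AQP1 against the mean log2(CPM + 1) of the endothelial markers in 4 tissues, and of AQP7 and AQP3 against the adipocyte markers in fat and muscle, with circles for cows and squares for bulls. Muscle lies far to the left of fat on the adipocyte axis while its AQP7 is lower by 1.83 on the log2 scale of the edgeR model.

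The tissues of the glycerol channels were set beside those of genes of triglyceride storage and breakdown and of glycerol use. Of 8 genes of triglyceride storage and breakdown, 8 were higher in fat than in muscle (32.6% of all genes were), 8 higher in fat than in pituitary (31.6%) and 8 lower in liver than in fat (35%), with a median log2 difference of fat over muscle of 3.46 (0.14 over all tested genes). The list shares PLIN1, CIDEC and LIPE with the adipocyte markers. CIDEC and PLIN1, which coat lipid droplets, and PNPLA2, the first lipase of lipolysis, had means in fat of 2374 ± 1094, 1904 ± 459 and 1570 ± 723 CPM (SD, n = 10). Of 10 genes of glycerol phosphorylation, glycerol 3-phosphate and gluconeogenesis, 4 were higher (28.7% of all genes) and 4 lower (35%) in liver than in fat while 2 were not called, a share near that of all genes, and the median log2 difference was -0.03 (-0.13 over all tested genes). Those higher in liver, the tissue of AQP9, were GK and GK5, which phosphorylate glycerol or belong to that enzyme family, and PCK1 and FBP1 of gluconeogenesis. PCK1 had 1844 ± 1126 CPM, GK5 821 ± 221 CPM and FBP1 495 ± 204 CPM in liver (SD, n = 10). TPI1 of glycolysis had 2309 ± 587 CPM in muscle and 177 ± 63.3 CPM in liver, and AGPAT2, which builds phosphatidic acid, 1835 ± 1290 CPM in fat and 178 ± 51.1 CPM in liver (SD, n = 10). Between the sexes edgeR's likelihood ratio test called 0 of 8 and 0 of 10 in each tissue, where it called 0.114% to 0.745% of all genes, so these counts do not set the lists apart.

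**Figure D5:**
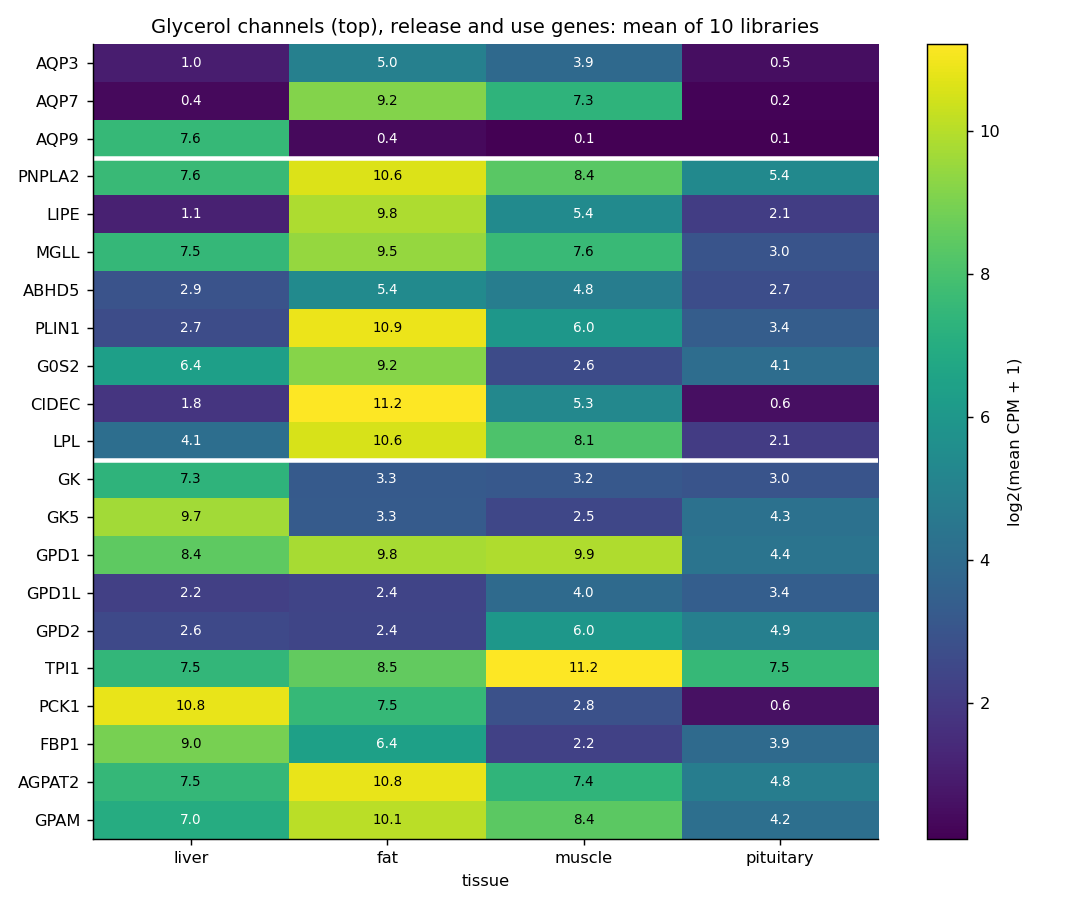
Mean of 10 libraries, as log2(mean CPM + 1), of the glycerol channels AQP3, AQP7 and AQP9 and of the genes of triglyceride storage and breakdown and of glycerol use in the 4 tissues. The 8 genes of triglyceride storage and breakdown are at their highest in fat, as AQP3 and AQP7 are. Of the glycerol use genes, GK, GK5, PCK1 and FBP1 are at their highest in liver, as AQP9 is. GPD1, GPD1L, GPD2 and TPI1 are at their highest in muscle, and AGPAT2 and GPAM in fat.

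The genes of the dystrophin complex, which holds AQP4 at the membrane, were high in muscle. Of the 7 measured, 7 were lower in fat than in muscle (26.7% of all genes were), 7 were higher in muscle than in pituitary (31.2%) and 6 were lower in liver than in muscle (33.8%), with a median log2 difference of muscle over pituitary of 3.08 (-0.02 over all tested genes). AQP4 itself did not differ between muscle and pituitary by this test. DAG1, SGCB and DTNA had 897 ± 501, 438 ± 107 and 342 ± 106 CPM in muscle and 105 ± 39.3, 87.6 ± 18.1 and 55.6 ± 10.6 CPM in pituitary (SD, n = 10).

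Of 9 genes of vasopressin and water signalling, the receptor AVPR2, which moves AQP2 to the membrane in the kidney, had 6.56 ± 5.25 CPM in fat and at most 0.137 CPM in any liver (SD, n = 10). AVPR1A, the vasopressin receptor known from hepatocytes, had 23.5 ± 12.0 CPM in liver (SD, n = 10). The gene of the hormone itself, AVP, was at 0.944 ± 0.335 CPM in the bulls' pituitaries and 0.160 ± 0.094 CPM in the cows' (SD, n = 5 each). It was the one gene of the 9 called between the sexes (edgeR likelihood ratio test in pituitary, adjusted p = 0.0032), where 0.745% of all genes were called. The cows' levels of AVP, 0.063 to 0.273 CPM, lay around the floor of 3 reads, and the bulls', 0.403 to 1.23 CPM, lay above it. Of 7 transporters of urea, monocarboxylates and glucose, SLC16A1, a lactate and pyruvate transporter, was called in pituitary, with 31.4 ± 4.62 CPM in cows and 18.8 ± 3.31 CPM in bulls (SD, n = 5 each; edgeR likelihood ratio test, adjusted p = 0.035). The same share of all genes stands beside this call, and neither call is read as a result about its list. The glucose transporters SLC2A2 and SLC2A4 had mean levels of 280.4 and 2.57 CPM in liver and 0.094 and 310.0 CPM in muscle.

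The genes most like each aquaporin across animals were found by Pearson's r of log2(CPM + 1), as a description with no test, over the 10 libraries of the tissue where it was highest. In fat LEP, the hormone leptin, was nearest to AQP7 (r = 0.95, and 0.88 without the fat library of bull 5) and is itself one of the adipocyte markers, followed by TTLL1 and TMEM53. In liver D2HGDH, KLHL22 and RECQL5 were nearest to AQP8 (r = 0.97 each), SMIM13, GPBP1L1 and YOD1 to AQP9 (0.97, 0.97 and 0.96) and CYR61, VGLL4 and CNN2 to AQP11 (0.97, 0.97 and 0.96). In muscle APRT, MAVS and UBOX5 were nearest to AQP1 (r = 0.96 each) and TECRL, COX7B and PPA2 to AQP4 (0.95, 0.94 and 0.90). In pituitary TSC22D1 was nearest to AQP5 (r = 0.97), and in fat SRSF1 to AQP3 (r = 0.90). Without the library of bull 3 the liver values for AQP2, AQP8, AQP9 and AQP11 lay between 0.83 and 0.98, and without that of bull 5 those of SRSF1, TTLL1 and TMEM53 in fat were 0.90, 0.79 and 0.80. The 3 nearest to AQP2 in liver, VAT1, PDXP and SELENBP1 (0.85, 0.84 and 0.83), rest on the liver of cow 2.

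Over all 40 libraries the points fall into 4 tissues, and the nearest genes are given as a description of that pattern. AQP8 went with GLYATL3 and AGXT, and AQP9 with CHIA, MGC152010 and LOC785762, at r of 0.99 or more. AQP7 went with COL5A3, TIMP4 and COL6A1 (r = 0.98 each), and AQP3 with CRISPLD2, COL4A1 and COL5A3 (0.96, 0.96 and 0.95). COL5A3 was on both lists. AQP4 went with ITGB6, CAMK2B and SLC2A12 (0.97, 0.96 and 0.96), AQP5 with GABRP, GAL3ST3 and NRSN2 (0.97 each), AQP1 with WNT11, PMP22 and CSPG4 (0.93, 0.92 and 0.92) and AQP11 with ABCG5, SLC5A1 and MIOX (0.94, 0.93 and 0.92).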

How the data were processed

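RNA of 4 tissues of 5 cows and 5 bulls was sequenced in 40 libraries. The authors trimmed reads with Trimmomatic, aligned them to bosTau7 with TopHat2 and Bowtie2, and deposited raw HTSeq counts of uniquely aligned reads per gene. The counting mode and strandedness are not given in the sources used here. An unnamed row (0.114% to 2.69% of counted reads) was left out. Reads of near-identical copies are lost with unique counting. Groups came from the labels.

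CPM and log2 fold changes (prior count 0.125) were computed with edgeR 4.0.16 in R 4.3.3. Tissues were compared by the quasi-likelihood test over 8 groups of tissue and sex, sexes by the likelihood ratio test (M1, M2 and the interaction), with Benjamini-Hochberg adjustment over 13148 genes and a threshold of 0.05. Alternatives used DESeq2 1.42.0, limma 3.58.1, RLE factors, library size alone, filterByExpr, the animal as a block and samples left out. The same animal gave all 4 tissues, so samples are paired by animal; voom estimated a correlation of 0.104 within an animal. Correlations used 100000 permutations. Intervals of pooled ratios and floors cover counting error only, and intervals of log2 differences come from the edgeR SE. Scripts were tested on simulated data.

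The members and lists were chosen with earlier results of these data known. All 9 members are named. From lists, the 3 genes of highest mean CPM in the tissue and those called between sexes are named; GK, AVPR1A, AVPR2, the glial genes, the cow 2 genes and MIP were added after their values were seen; likeness took the 3 highest r among genes of at least 5 CPM in the tissue, or 1 CPM over all libraries, and a gene of that list is not reported here. SNTB1, UTRN, APOB, ADIPOQ, TNNI1 and SOX9 were not analysed here. RefSeq's annotation of the current assembly served for neighbours only.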

Additional observations from a re-analysis of the deposited data

Results flagged for a closer look

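In 6 of 30 groups of 5 samples, 1 for each measurable aquaporin, tissue and sex, the highest sample stood far from the others by Dixon's test. Chance flags about 1 in 20 groups of normally distributed values. The test was run on CPM without a log, so the 6 flags are not read against that rate. AQP2 in the liver of cow 2 was 9.60 CPM, with the next cow at 0.421 CPM. AQP2 counted as measurable in liver only through this library, so its flag follows from the choice of groups and would not count beside that rate in any case. AQP7 in the fat of cow 3 was 767 CPM against 478 CPM in the next cow, and AQP7 in the fat of bull 5, the library with few Y-linked reads, was 995 CPM against 573 CPM in the next bull. AQP9 in the liver of cow 4 was 316 CPM against 144 CPM in the next cow. The liver labelled bull 3, which had XIST like a cow and was closest to that of cow 4, had 364 CPM. AQP4 in the muscle of cow 3 was 55.0 CPM against 24.8 CPM, and AQP11 in the liver of bull 4 was 4.37 CPM against 1.79 CPM. The causes were not tested.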

How the results depend on the processing

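The count of aquaporins called between sexes was 0 under every alternative run, in each tissue, over tissues and for the interaction. Counts between tissues moved by at most 1.5 times, the most between fat and muscle, with 4 as reported and 6 by the likelihood ratio test and with library size alone. With the animal as a replicate block, a paired analysis, 5 aquaporins were called between fat and muscle, 7 between fat and pituitary, 8 between liver and fat, 9 between liver and muscle, 7 between liver and pituitary and 5 between muscle and pituitary, and 0 over tissues and in the interaction. The shares of all genes called between tissues under these alternative settings are not given here. These counts are therefore not read as a result about the aquaporins. The call gained under the block was that of AQP2 between fat and muscle. The calls lost were those of AQP2 between liver and fat and AQP1 between liver and pituitary, the latter also lost with RLE factors (adjusted p = 0.0519).

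Library size alone, without TMM factors, moved the median gene by up to 0.87 on the log2 scale between tissues and by 0.11 to 0.15 between sexes. It turned uncalled differences, AQP1 of fat over muscle to 0.30, AQP4 of muscle over pituitary to -0.40 and AQP4 by sex in pituitary to -0.0862. It also removed the call of AQP3 between liver and pituitary. It moved mean CPM by over 1 SD in cows' fat (AQP1 189, AQP7 707), cows' muscle (AQP7 111), cows' pituitary (AQP4 37.3, AQP5 3.70), bulls' muscle (AQP1 183, AQP3 9.84), bulls' pituitary (AQP1 38.5) and bulls' liver (AQP8 44.5). With 1 sample left out, the sex differences that changed sign ran, on the log2 scale, from -0.0308 to 0.39 for AQP7 in fat, from -4.06 to 0.28 for AQP2 in liver, from -0.12 to 0.73, -0.12 to 0.36 and -0.0481 to 0.39 for AQP1, AQP3 and AQP7 in muscle, and from -0.15 to 0.26 for AQP4 in pituitary. Without the 2 samples farthest from the median of the list, the r of AQP1 and the endothelial markers became 0.0875 in fat and -0.018 in muscle, that of AQP7 and the adipocyte markers 0.52 and that of AQP4 and the fast fibre markers -0.42. The rank correlation of AQP7 was 0.58, and without the fat library of bull 5 r was 0.47. Depth limits AQP2, AQP5 and AQP11 outside their main tissue, where libraries held 0 to 15 reads.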

Other observations

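MIP, the lens aquaporin also called aquaporin 0, was not among the 9 genes chosen but was counted in these libraries. It had 0.983 to 4.28 CPM in liver from 7 to 53 reads per library, with a mean of 2.07 ± 1.04 CPM (SD, n = 10). It had 0.081 to 1.07 CPM in pituitary, at most 0.522 CPM in fat and at most 0.331 CPM in muscle.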
